A study of Danio rerio
Oryzias latipes and Oryzias latipes and Danio rerio with 7 samples.

Results

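Zebrafish and medaka transcripts were compared inside the same chimeric embryos. The chimeras, called zebraka (strain Cab/AB), were medaka blastulae into which zebrafish blastomeres of the same age had been placed, so each library held RNA of a zebrafish donor and of a medaka host. RNA was taken with Trizol, selected for poly(A) and sequenced. Each of the 3 chimera libraries was read against the zebrafish genome for the donor and against the medaka genome for the host. Whole zebrafish embryos (strain AB, n = 2 libraries) and whole medaka embryos (strain Cab, n = 2) served as controls. All were kept at 28 °C, the chimeras and the medaka embryos in ERM and the zebrafish embryos in E3 medium. The labels give the stage only as embryo. They do not say which host tissues remained or how many cells were grafted, nor whether replicate libraries go back to different clutches. What the p-values weigh is thus the scatter among these particular samples, part of which may be technical.

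The genes were those with the same symbol in both annotations and a single gene ID for it in each. Of 11884 such genes, 10987 had valid values and almost no cross-mapping, that is under 1 FPKM in the other species' embryos on either genome. A mean of at least 5 FPKM in the donor or in the host then left 6729 genes. FPKM divide a gene's fragments by its length and by the depth of the library, and all levels below are FPKM after a median-ratio rescaling that puts the donor and host values on a common scale. Of the 6729 genes, 4286 reached 5 FPKM in both genomes, 663 in the donor alone and 1780 in the host alone. The genes of the last 2 kinds had to differ between the genomes to be kept, so no count below speaks for all shared genes. The filter set the direction of each of them wherever they are counted or named below, also where this is not repeated. At the threshold of 5 FPKM, 211 genes lay within 0.5 FPKM above it and 209 within 0.5 FPKM below it.

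A transplanted blastomere is still pluripotent, and its descendants take on fates according to where they come to lie and which signals reach them. In a fish embryo the eye field lies in the anterior neural plate, from which retina and retinal pigment epithelium form, whereas lens, skin, muscle, heart, blood and liver arise elsewhere. Each of these tissues is known for a set of transcription factors and structural genes, which zebrafish and medaka share by descent, so the same gene can be read in donor and host. A whole-embryo library cannot tell fewer cells of a type from less RNA per cell.

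The donor was far less deeply covered than the host. The deposited confidence limits imply 941708, 764000 and 847288 fragments on the zebrafish genome in chimera replicates 1 to 3, against 30984000, 27167700 and 27824200 on the medaka genome. Over the 6729 genes the chimeras held 358492, 285729 and 316383 fragments on the zebrafish genome, where the medaka embryos held 18.5 and 55.8, a gap that the limit on cross-mapping sets. Over all genes, before that limit, the medaka embryos held 102064 and 77794 fragments on the zebrafish genome, and the share of cross-mapped host reads in the chimera totals was not measured. A level on 1 genome also depends on that genome's gene models, so a difference between donor and host was set beside the difference between whole zebrafish and whole medaka embryos.

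**Figure D1:**
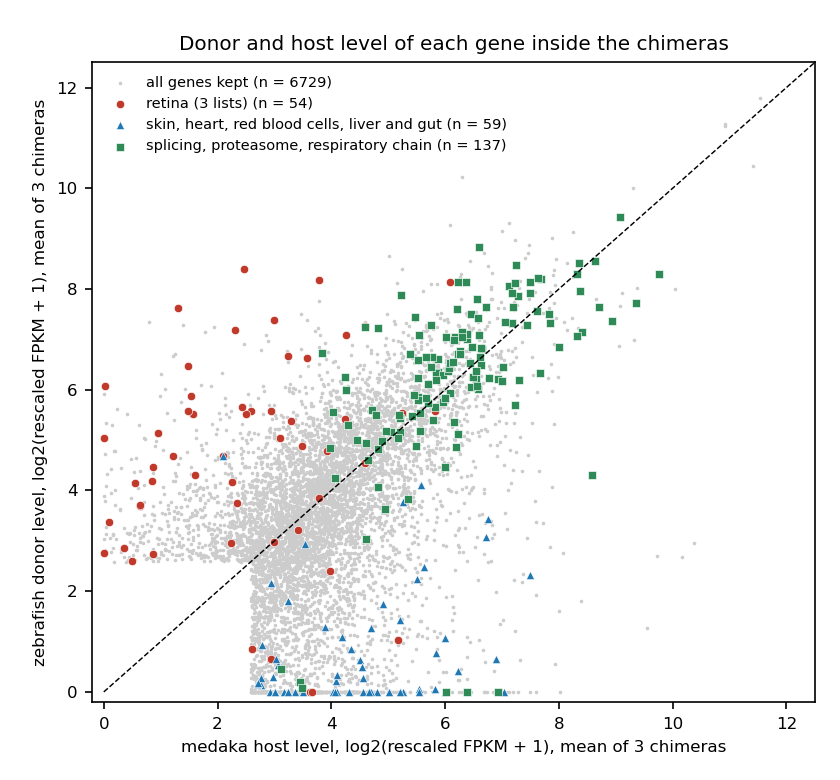
Mean level of each gene in the donor (vertical axis) and in the host (horizontal axis) over 3 chimeras, as log2(rescaled FPKM + 1), with equal levels on the dashed line and the empty lower left corner set by the minimum of 5 FPKM. Retinal genes lie mostly above the line, genes of skin, heart, blood, liver and gut mostly below it, and genes of splicing, the proteasome and the respiratory chain around the line.

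Donor and host differed in many genes, and in the same way in every chimera. A gene was called when its within-library difference passed limma's moderated test at an adjusted p under 0.05 and was at least 2-fold on the scale of log2(FPKM + 1). An adjusted p under 0.05 alone was met by 75.4% of the genes. By the full rule 1174 of 6729 genes (17.4%) were higher in the donor than in the host and 2100 (31.2%) were lower. The donor against host counts of every list below stand beside these 2 shares. The median difference was -0.21 on the log2 scale, and log2 differences below are of FPKM + 1, which understates the change of low genes, while folds are ratios of mean FPKM. Between whole zebrafish and whole medaka embryos the same genes had a median difference of -0.14. The balance of the 2 directions rested on the scaling, since 35.9% of calls were higher here, 21.8% with the deposited FPKM (762 higher, 2731 lower) and 50.5% after quantile normalization (1584 higher, 1555 lower). Those 2 scalings applied the minimum of 5 FPKM anew, so their gene sets differ, and their medians were -0.62 and 0.12. Of the 6729 genes 6662 met it with the deposited FPKM and 6577 after quantile normalization, with medians of -0.59 and 0.03. Among these, 762 were higher and 2599 lower with the deposited FPKM, and 1394 higher and 1555 lower after quantile normalization. Among genes with at least 5 FPKM in both genomes 718 were higher and 560 lower. The donor was listed at 0 in all 3 chimeras for 332 genes, 331 of them called lower, and 93 of the 332 stood under 1 FPKM in zebrafish embryos as well. Donor and host values did not overlap in 82.1% of the genes. The difference had an SD of 1.78 over genes, against 1.31 between the embryos of both species, and a median SD of 0.231 over the 3 chimeras. Across genes, donor and host levels had Pearson's r of 0.400, 0.398 and 0.400 in chimera replicates 1 to 3, against 0.579 for zebrafish and medaka embryos (n = 6729 genes, which are not independent and share gene models). The minimum of 5 FPKM was set on chimera values alone, which by itself favours a wider spread and a lower r there. The donor was also less deeply covered, so nothing is read from the contrasts of SD and r with the embryos.

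Genes of the eye field and of retinal progenitors were among the most raised in the donor. Of the 22 genes of this list that were kept, 15 were higher in the donor, 2 were lower and 5 were not called. The median difference was 2.34 on the log2 scale, against -0.21 over all genes kept and 0.96 for this list between zebrafish and medaka embryos. The list was drawn up with earlier results of these libraries known, so its direction is a description. At least pax6a, atoh7, lhx9, ptf1a and vax2 were under 5 FPKM in the host and kept through the donor alone. For aldh1a2 and lhx2a, under 5 FPKM in the donor, it was the host alone. The filter set the direction of these genes. pax6a, a paired-box regulator of eye formation, had 330.0, 357 and 324 FPKM in the donor and 4.99, 4.23 and 4.25 FPKM in the host. All donor values lay far above all host values, and the mean was 75.1-fold higher (log2 difference 5.95 ± 0.10 SE, adjusted p = 1.7e-05). Whole zebrafish embryos held 44.6 and 42.5 FPKM of pax6a and whole medaka embryos 5.72 and 6.00, so the gap within chimeras was wider than that between embryos by 3.25 ± 0.12 log2 units (adjusted p = 8.1e-08).

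atoh7, a bHLH factor required for retinal ganglion cells, stood at 191, 193 and 203 FPKM in the donor against 1.50, 1.62 and 1.28 FPKM in the host. Its zebrafish embryo values of 15.4 and 9.47 FPKM and medaka embryo values of 0.410 and 0.311 FPKM left the donor as the only high set. The log2 difference of 6.32 within chimeras exceeded the 3.27 between embryos by 3.05 (adjusted p = 1e-05). foxn4, which acts in progenitors of amacrine and horizontal cells, had 162, 189.6 and 148 FPKM in the donor and 6.64, 7.11 and 7.17 in the host, a 23.9-fold higher level in the donor with no overlap. The T-box factor tbx2b, active in the dorsal eye, averaged 135 ± 10.6 FPKM in the donor and 18.2 ± 0.129 in the host (SD, n = 3 each). Its level in zebrafish embryos, 25.3 FPKM, was close to that in medaka embryos, 18.9 FPKM. The homeobox genes rx1, hmx4 and hmx1 were 11.4-fold, 9.56-fold and 4.61-fold higher in the donor. The donor values of all 3 lay above every host value. For hmx1 the embryos ran the other way, with 4.52 FPKM in zebrafish and 8.05 FPKM in medaka.

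Further genes called higher were lhx9, ptf1a, mab21l1, prox1a, hes6, foxg1a and vax2, of which lhx9, a LIM homeobox gene, had 46.5 FPKM in the donor against 1.78 in the host, and vax2, a homeobox gene of the ventral eye, 12.4 against 4.09. ptf1a, which directs horizontal and amacrine fates, had 21.1 FPKM in the donor against 0.822 in the host, and hes6, a bHLH factor of neurogenesis, 282 against 67.3 FPKM. With 5 FPKM added in place of 1 vax2 was under 2-fold and no longer called. The genes not called were rx2, six6a, meis1b, mab21l2 and foxd1. rx2, the gene of a second retinal homeobox factor, had 24.4, 21.9 and 33.2 FPKM in the donor and 13.9, 13.8 and 15.0 in the host, values that did not overlap but differed less than 2-fold. Zebrafish embryos had only 6.17 FPKM of rx2 against 14.5 in medaka embryos, and the difference of the differences was 1.94 (adjusted p = 0.00013). six6a and meis1b, homeobox genes of the eye, averaged 6.76 and 45.7 FPKM in the donor and 3.71 and 37.1 FPKM in the host. mab21l2 and foxd1 averaged 22.3 and 8.24 FPKM in the donor and 23.1 and 9.68 FPKM in the host. The lower pair consisted of aldh1a2, which makes retinoic acid and had 4.30 FPKM in the donor against 14.7 in the host, and lhx2a. lhx2a was listed at 0 in the donor against 11.6 FPKM in the host, but it was also low in zebrafish embryos, at 0.796 FPKM. pax6b had been removed for cross-mapping and is given without a test, a choice made after its values were seen. It held 80.8, 106 and 93.2 FPKM in the donor and 28.6, 28.1 and 27.4 in the host.

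**Figure D2:**
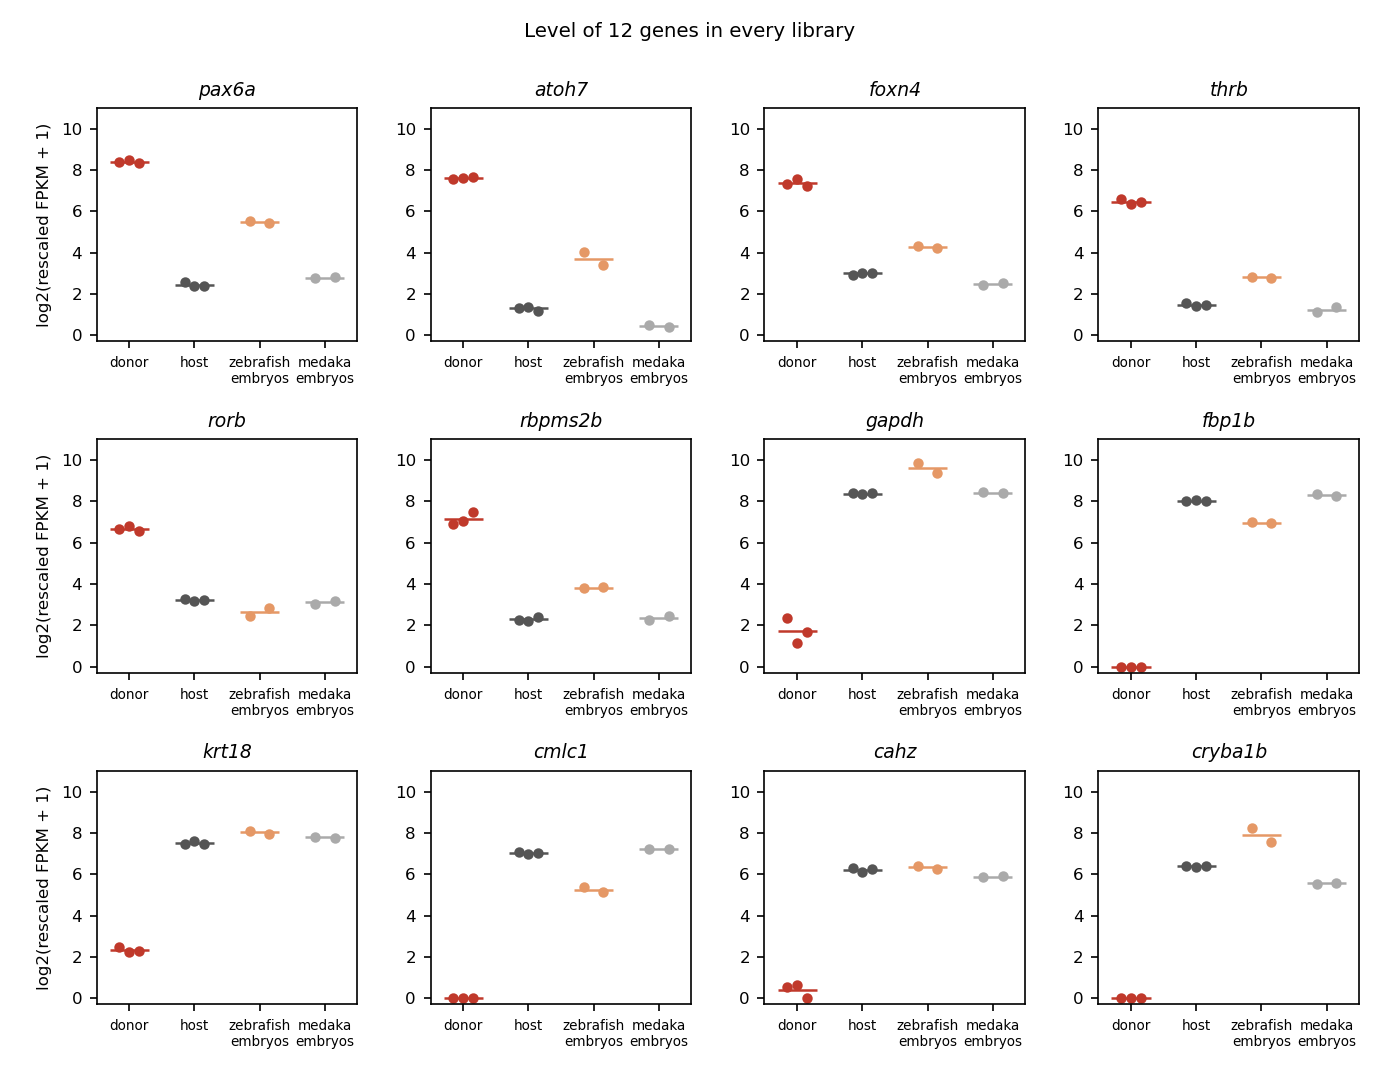
Level of 12 genes as log2(rescaled FPKM + 1) in each library (points) with the mean (line) for the donor, the host, zebrafish embryos and medaka embryos. The retinal genes pax6a to rbpms2b are highest in the donor, and gapdh, fbp1b, krt18, cmlc1, cahz and cryba1b are lowest in the donor and present in the other 3 groups.

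Regulators of photoreceptor fate were high in the donor as well. Of 39 joined genes of the photoreceptor list 12 were kept. Of these 10 were higher and 2, prdm1a and pde6d, were not called, beside 17.4% higher over all genes. The median log2 difference was 2.88 against 1.03 between the embryos. Both the 10 and this median include nr2e3 and otx5, whose medaka models were close to 0 in medaka embryos as well. At least thrb, six7, nr2e3 and otx5 were under 5 FPKM in the host and kept through the donor alone, so the filter set their direction. The genes that moved were otx5, nr2e3, thrb, rorb, six7, neurod1 and nr2e1, all transcription factors, with rlbp1a and rbp4l, which encode retinoid-binding proteins, and unc119b, whose protein carries lipid-modified proteins. No opsin was among the genes kept. thrb, the thyroid hormone receptor of red cones, had 96.3, 80.9 and 85.9 FPKM in the donor and 1.96, 1.68 and 1.74 in the host. That is 49.0-fold higher in the donor without overlap, whereas zebrafish embryos had 5.98 FPKM and medaka embryos 1.36. neurod1, a proneural bHLH factor of photoreceptors, averaged 98.4 ± 9.90 FPKM in the donor and 10.9 ± 1.09 in the host, and nr2e1, a nuclear receptor of neural progenitors, 41.9 ± 3.08 and 17.9 ± 0.590 FPKM (SD, n = 3 each). rorb, an orphan nuclear receptor of photoreceptor precursors, had 99.6, 111 and 92.6 FPKM in the donor and 8.81, 8.20 and 8.47 FPKM in the host, again without overlap. With the deposited FPKM nr2e1 was under 2-fold and not called.

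For rorb the order in whole embryos was reversed, with 4.48 and 6.10 FPKM in zebrafish and 7.15 and 8.20 FPKM in medaka. The log2 difference was 3.42 within chimeras and -0.47 between embryos, and they differed by 3.90 ± 0.18 SE (adjusted p = 2.9e-07). six7, a regulator of green cones in zebrafish, behaved alike, with 17.2, 18.1 and 16.4 FPKM in the donor and 0.784, 0.904 and 0.739 in the host, against 0.260 FPKM in zebrafish and 1.06 in medaka embryos. nr2e3, a nuclear receptor of rods, and otx5, an orthodenticle factor of photoreceptors and pineal, had 32.1 ± 4.63 and 66.3 ± 6.58 FPKM in the donor (SD, n = 3). Their host values of at most 0.0257 FPKM were matched by at most 0.0386 FPKM in medaka embryos. The medaka models of both genes were thus close to 0 in every medaka-genome library used, and no fold is given. Within the zebrafish genome both were high in the donor only, since zebrafish embryos had 0.970 FPKM of nr2e3 and 1.79 of otx5.

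Genes of the inner retinal neurons were mostly higher in the donor, but less of that gap set the chimeras apart from whole embryos. Of 21 kept genes 16 were higher and 4 lower, with a median of 3.00 within chimeras and 2.07 between embryos. Against the embryo gap 6 were higher and 3 lower, beside 4.35% and 15.8% of all genes, and nothing is read from the lower count. At least rbpms2b was kept through the donor alone, and gap43, prkca and isl2a through the host alone, so the filter set their direction. rbpms2b, an RNA-binding protein of ganglion cells, had 119, 134 and 181 FPKM in the donor and 3.85, 3.57 and 4.35 in the host, against 13.2 FPKM in zebrafish and 4.09 in medaka embryos. neurod4, a proneural bHLH factor, reached 288 ± 12.9 FPKM in the donor against 12.8 ± 0.0605 in the host (SD, n = 3 each). The LIM homeobox gene lhx3 was 36.4-fold higher and the POU factor gene pou4f2, a marker of ganglion cells, 21.8-fold higher, both beyond the embryo gap by test. The others called higher were bhlhe22, alcama, neurod6b, slc6a9, tbr1b, ebf3a, eomesa, onecut1, bhlhe23, gad2, tfap2c and elavl4, at log2 differences of 1.33 to 4.33. Of these tfap2c was not called with the deposited FPKM, nor bhlhe23 and gad2 with 5 FPKM added. alcamb was not called, at 46.9 FPKM in the donor and 55.7 in the host. The lower genes were rbpms, gap43, prkca and isl2a. rbpms was equally low in zebrafish embryos, and gap43 was listed at 0 in the donor and in zebrafish embryos alike. isl2a, a LIM homeobox gene of ganglion cells, had 1.50, 0.916 and 0 FPKM in the donor against 5.31, 5.00 and 4.93 in the host, and prkca, a bipolar cell kinase, 0.577 against 6.63 FPKM. isl2a was not called with 5 FPKM added.

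Lens genes other than prox1a were nearly absent from the donor, although their summed level was higher in zebrafish than in medaka embryos. Of 9 kept lens genes 8 were lower and 1, prox1a, was higher. The 8 were under 5 FPKM in the donor and kept through the host alone, so the filter set their direction. Of the lower ones 5, all of cryba1b, cryba2b, cryaa, crygmx and mipa, were listed at 0 in the donor of all 3 chimeras, and pitx3, a lens homeobox gene, and crygn1 averaged 0.153 and 0.323 FPKM in the donor against 5.40 and 5.02 in the host. The summed donor level of the list ran from 24.0 to 26.9 FPKM, of which prox1a averaged 24.8, against 219 to 221 FPKM in the host, 528 to 749 FPKM in zebrafish embryos and 112 to 127 FPKM in medaka embryos. The crystallin gene cryba1b was listed at 0 in the donor of every chimera and had 83.4, 81.8 and 84.2 FPKM in the host. At the host level the donor would have held about 18.8 fragments per library. Zebrafish embryos held 298 and 189.8 FPKM of cryba1b and medaka embryos 45.8 and 47.3. mipb, a lens water channel, had 0, 0.395 and 0 FPKM in the donor against 21.7, 20.7 and 20.5 in the host. The exception, prox1a, is also known from horizontal cells and liver, and was in the eye field list too.

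Most kept pigment genes were lower in the donor, and 2 were listed at 0 there in all chimeras. Of 12 kept genes 9 were lower and 1 higher, with a median of -2.07 within chimeras and -0.22 between embryos. tyrp1b, a melanin enzyme, had 7.80, 6.50 and 7.48 FPKM in the donor against 47.2, 52.9 and 49.1 in the host, and dct, another, 15.0, 11.0 and 12.5 against 42.3, 43.1 and 42.9 FPKM. Both species' embryos had similar levels of each, at 47.6 and 49.1 FPKM for tyrp1b and 36.1 and 39.1 FPKM for dct in zebrafish and medaka. gch2, needed for the pteridines of yellow pigment cells, was listed at 0 in the donor against 29.0 ± 1.03 FPKM in the host (SD, n = 3). The gene called higher, pmelb, had 12.9 FPKM in the donor and 0.0113 in the host, but its medaka model was also listed at 0 in medaka embryos.

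Forebrain genes were mostly at or above the host level in the donor, and genes of the midbrain, hindbrain and posterior hox lists mostly below it. Of 19 kept forebrain genes 10 were higher in the donor and 1 was lower, with medians of 1.43 within chimeras and 1.54 between embryos. Of the 19, 3 were above and 5 below the embryo gap, beside 4.35% and 15.8% of all genes. otx2, an orthodenticle factor of the anterior brain and the eye, had 177, 155 and 165 FPKM in the donor and 10.8, 11.0 and 10.9 in the host, 2.43 log2 units beyond the embryo gap (adjusted p = 3.3e-07). fgf8a, a signal of the forebrain and of the midbrain-hindbrain boundary, was 3.97-fold higher with a wide spread of 26.7, 34.7 and 14.0 FPKM over the chimeras. Of 13 kept midbrain and hindbrain genes 1 was higher, fgf8a itself, and 8 were lower, beside 17.4% and 31.2% over all genes. Listed at 0 in every donor were 4 of the 13, hoxb3a and hoxb1b included. These were kept through the host alone, so the filter set their direction. hoxb3a and hoxb1b, which pattern the hindbrain, were listed at 0 in the donor of each chimera against 19.8 ± 0.167 and 26.7 ± 0.670 FPKM in the host. Zebrafish embryos had 45.5 and 17.8 FPKM of them, and at host levels the donor would have held about 20.8 and 64.7 fragments per library. Of the posterior hox list 5 genes were kept, namely hoxa11a, hoxa11b, hoxb9a, hoxb6a and hoxc5a. By paralogue number hoxb6a and hoxc5a are central rather than posterior hox genes. All 5 were listed at 0 in the donor of all 3 chimeras. Their summed levels were 35.6 to 39.6 FPKM in the host and 45.4 to 55.1 FPKM in zebrafish embryos. They were kept through the host alone, so the filter set their direction.

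General neural genes were higher in the donor by about as much as in zebrafish over medaka embryos. Of 29 kept genes 24 were higher and 4 lower, with a median of 2.02 within chimeras and 2.01 between embryos, and the median difference of the differences was -0.15. The Notch ligand gene dlc, at 140.5 ± 12.6 FPKM in the donor and 2.44 ± 0.0586 in the host (SD, n = 3 each), was 2.32 log2 units beyond the embryo gap. myt1b, a zinc-finger factor of new neurons, was 10.2-fold higher in the donor, and the embryos differed as much (36.3 FPKM in zebrafish, 3.66 in medaka). Against the embryo gap 6 of the 29 genes were higher and 5 lower, beside 4.35% and 15.8% of all genes, and nothing is read from the lower count. Over all 6729 genes, 19 of the 1174 called higher in the donor nevertheless fell short of the embryo gap. Of these 19, 3 neuronal ones are given here, chosen after their values were seen. stxbp1a, which helps synaptic vesicles fuse, had 10.4, 10.5 and 11.7 FPKM in the donor and 2.15, 2.05 and 2.18 in the host, whereas zebrafish embryos had 46.3 and 41.9 and medaka embryos 1.48 and 1.91. Its difference of differences was -2.14 (adjusted p = 6.2e-06), that of elavl4, a neuronal RNA-binding protein, -1.28 (adjusted p = 0.0089), and that of sypa, synaptophysin, -1.22 (adjusted p = 0.001). With 5 FPKM added in place of 1 the shortfalls of elavl4 and sypa were under 2-fold and no longer called. The glial filament gene gfap was lower in the donor, with 30.9, 30.3 and 31.5 FPKM against 83.5, 86.4 and 84.6 in the host.

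**Figure D3:**
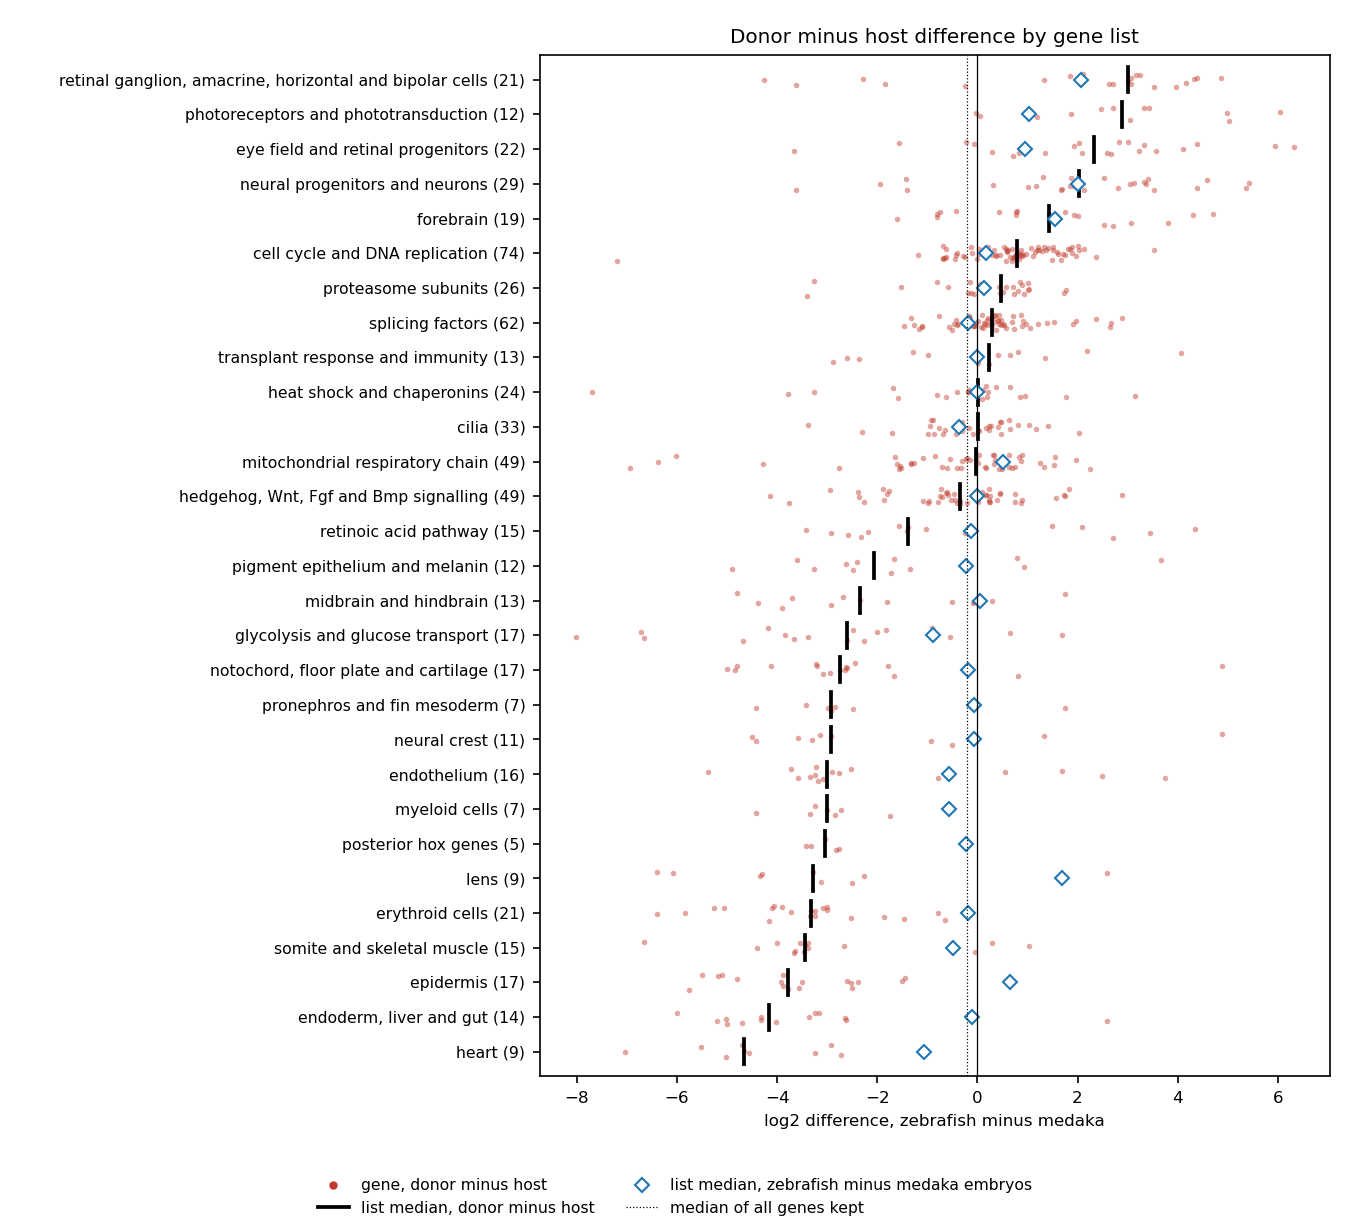
Donor minus host log2 difference of every kept gene (red points) in each list with at least 5 kept genes (number in brackets), with the list median (black bar), the median of the same genes between zebrafish and medaka embryos (blue diamond) and the median over all genes kept (dotted line). Retinal lists lie to the right of their embryo medians, neural and forebrain lists close to them, and lists of skin, heart, liver, muscle, blood and lens far to their left.

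Genes of skin, heart, blood and liver were mostly lower in the donor, and those of the heart were nearly all listed at 0 there. All 17 kept epidermal genes were lower, 2 of them listed at 0 in the donor, and their summed level was 23.6 to 26.5 FPKM in the donor, 546 to 573 FPKM in the host and 939.7 to 992 FPKM in zebrafish embryos. With so low a donor sum most of the 17, krt18 and tp63 among them, were under 5 FPKM in the donor. These were kept through the host alone, so the filter set their direction. The keratin gene krt18 had 4.55, 3.72 and 3.80 FPKM in the donor against 173, 192 and 175 in the host, and tp63, the regulator of basal epidermis, 0.242, 0 and 0.561 against 16.7, 15.6 and 16.3 FPKM. Zebrafish embryos held 261 FPKM of krt18 and 28.4 of tp63, against medaka embryos at 221 and 17.6 FPKM. All 9 kept heart genes were lower, 8 of them listed at 0 in the donor. All 9 were under 5 FPKM in the donor and kept through the host alone, so the filter set their direction. cmlc1 and myl7, cardiac myosin light chains, were listed at 0 against 131 ± 3.52 and 45.3 ± 3.78 FPKM in the host, where about 132 and 31.1 donor fragments per library would have been held at the host level.

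Of 21 kept red blood cell genes 19 were lower, 5 of them listed at 0 in the donor, and 2, tal1 and uros, were not called, with a median of -3.32 within chimeras and -0.20 between embryos. The summed level of the list was 53.6 to 64.2 FPKM in the donor against 793 to 843 FPKM in the host. At least the 5 genes listed at 0 and cahz were kept through the host alone, so the filter set their direction. alas2, the first enzyme of haem synthesis in red cells, was listed at 0 in the donor against 37.8, 38.1 and 36.2 FPKM in the host, and cahz, a red cell carbonic anhydrase, had 0.440, 0.538 and 0 against 77.4, 69.2 and 75.6 FPKM. Of 14 kept genes of endoderm, liver and gut 13 were lower, 10 of them listed at 0, and prox1a was higher. The 13 were under 5 FPKM in the donor, so the filter set their direction too. plg, plasminogen, and fgb, a fibrinogen chain, were listed at 0 in the donor against 62.7 and 18.9 FPKM in the host, while zebrafish embryos held 33.8 and 72.6 FPKM. The other blood and mesoderm lists also held more lower than higher genes. All 7 myeloid genes were lower. Their summed donor mean was 2.94 FPKM, so each was kept through the host alone and the filter set its direction. In the list of notochord, floor plate and cartilage 15 of 17 genes were lower and 1, sox9b, was higher. In somite and muscle 11 of 15 were lower and 1, mef2d, was higher, and in pronephros and fin 6 of 7 were lower and 1, tbx4, was higher. The 6 were under 5 FPKM in the donor, so the filter set their direction. With 5 FPKM added neither mef2d nor tbx4 was called. The neural crest list was mixed, with 6 of 11 genes lower, 3 not called and 2 higher, namely sox9b and tfap2c, and a summed level of 116 to 141 FPKM in the donor against 172 to 177 FPKM in the host. sox9b, a SOX factor of cartilage, crest and glia, had 57.7 FPKM in the donor and 0.988 in the host. Of the hatching gland list only 2 genes were kept, and 1 was lower.

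In the lists of skin, heart, blood, endothelium, liver, muscle, notochord, neural crest and pronephros, the lowest median within chimeras was -4.66, for heart. The highest was -2.75, for notochord, floor plate and cartilage. The hatching gland is left out. With donor values of 0 raised to 3 fragments per library, the medians were -2.98 for heart and -2.63 for endoderm, liver and gut. Those of epidermis, red blood cells, lens and the posterior hox list were -3.57, -3.09, -2.50 and -1.34. They were -3.38 for somite and muscle, -2.80 for endothelium, -2.62 for notochord, floor plate and cartilage and -2.28 for myeloid cells. Neural crest stood at -1.78, and so did pronephros and fin, a list that shares hand2 and twist1a with it.

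In those lists the embryo values set some genes apart. cav3, a muscle caveolin, was listed at 0 in the donor against 5.35 ± 0.221 FPKM in the host, although zebrafish embryos had 96.9 FPKM and medaka embryos 2.98. By contrast msgn1, a gene of unsegmented mesoderm, was low in the donor, at 1.06, 0.865 and 0.786 FPKM against 20.2, 22.2 and 21.4 in the host, and low in zebrafish embryos too, at 0.355 and 0.433 FPKM. Its difference of differences was 0.52 (adjusted p = 0.022) and under 2-fold. shha, the hedgehog ligand of notochord and floor plate, had 0.862, 1.40 and 1.12 FPKM in the donor and 14.5, 16.3 and 14.8 in the host. In the endothelial list 11 of 16 genes were lower and 3 higher, namely dll4, which was not called with 5 FPKM added, cldn5b and sox18. cldn5b, a tight-junction claudin, had 43.9 ± 3.20 FPKM in the donor and 7.07 ± 0.962 in the host, while fli1a, a vascular transcription factor, had 0, 0.827 and 0 against 14.7, 15.4 and 15.0 FPKM.

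Most kept genes of glucose metabolism were lower in the donor, but only 17 of the 43 joined genes of this list were kept. Of 17 kept genes of glycolysis, gluconeogenesis and glucose transport 13 were lower and 1, tpi1a, was higher (not called with 5 FPKM added), with a median of -2.60 within chimeras and -0.90 between embryos. Against the embryo gap 10 of the 17 were lower, beside 15.8% of all genes. At least gapdh and fbp1b were under 5 FPKM in the donor and kept through the host alone, so the filter set their direction. gapdh, glyceraldehyde-3-phosphate dehydrogenase, had 4.05, 1.24 and 2.25 FPKM in the donor against 335, 329 and 336 in the host. Zebrafish embryos held 938 and 670.2 FPKM of gapdh and medaka embryos 350.3 and 334. The donor values rest on about 0.934 fragment per library where the host level would have given 26.1.

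Its paralogue gapdhs, removed for cross-mapping and named after its values were seen, had 116, 137 and 123 FPKM in the donor and 365, 381 and 362 in the host, with no test. fbp1b, the fructose-bisphosphatase of gluconeogenesis, was listed at 0 in each donor against 257, 264 and 255 FPKM in the host, a level at which about 139.9 fragments would have been held. Enolase and phosphoglycerate kinase were lower too, eno1a with 30.9, 38.5 and 28.3 FPKM in the donor against 156, 163 and 157 in the host, and pgk1 with 6.47, 10.1 and 11.2 against 99.1, 109 and 103. eno1a was 4.87-fold lower in the donor (adjusted p = 4e-05), and the difference of differences was -1.75 (adjusted p = 0.0003).

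More genes of cell division were higher than lower in the donor, and most were not called. Of 74 kept genes 28 were higher, 2 were lower and 44 were not called, beside 17.4% higher and 31.2% lower over all genes, with a median of 0.79 within chimeras and 0.17 between embryos. With the deposited FPKM 6662 of the 6729 genes met the minimum, and 762 of them were higher. Of the list 19 were then higher and 6 lower. Against the embryo gap 6 of 74 were higher, beside 4.35% of all genes. ccnd1, the cyclin of the step into S phase, had 418, 464 and 379 FPKM in the donor and 99.1, 104 and 101 in the host, and 1.53 log2 units beyond the embryo gap. top2a, the topoisomerase of dividing cells, was 3.05-fold higher at 182 ± 10.5 FPKM in the donor against 59.6 ± 0.167 in the host. mcm5, a subunit of the replicative helicase, differed by less than 2-fold, with 154, 173 and 157 against 104, 115 and 105 FPKM. dut, at 0 in the donor, was listed at 0 in zebrafish embryos as well and says nothing about the donor.

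Splicing, proteasome, cilium and chaperone genes lay within 2-fold more often than all genes kept, and respiratory chain genes about as often. All genes kept include 1780 kept through the host alone and 663 through the donor alone, which had to differ. Among the 4286 genes at 5 FPKM in both genomes 718 were called higher and 560 lower. The lists were not set beside those genes alone, so nothing is read from the contrast. Within 2-fold lay 46 of 62 splicing factors, 18 of 26 proteasome subunits, 29 of 49 genes of the respiratory chain, 26 of 33 cilium genes and 17 of 24 chaperones, against 51.0% of all genes kept. For example psma5, a proteasome subunit, had 161, 205 and 195 FPKM in the donor and 204, 184 and 199 in the host, which overlapped. Called against the embryo gap in either direction were 1 higher and 1 lower splicing factor, 5 lower genes of the respiratory chain, 1 higher and 1 lower cilium gene, and 4 lower chaperones. Over all genes these shares were 4.35% higher and 15.8% lower. Within chimeras the calls were 10 higher and 6 lower for splicing, 5 and 3 for the proteasome, 6 and 14 for the respiratory chain, 4 and 3 for cilia, and 2 and 5 for chaperones. For the respiratory chain the lower calls were about as frequent as the 31.2% over all genes. The medians of these lists other than the proteasome changed sign with the scaling, so they are given no direction. Of 67 joined ribosomal protein genes cross-mapping left 4, all within 2-fold. hspb1, a small heat shock protein, had 6.97, 1.42 and 7.76 FPKM in the donor against 1168, 1087 and 1169 in the host, but zebrafish embryos had 25.6 against 1948 in medaka embryos, and the difference of differences was not called (adjusted p = 0.094).

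In the retinoic acid list 5 of 15 genes were higher and 9 lower, beside 17.4% higher and 31.2% lower over all genes. The higher genes were stra6, rxrba, cyp26a1, rdh10a and crabp1a. crabp1a, a retinoic acid binding protein, had 69.8, 85.2 and 47.7 FPKM in the donor and 2.59, 1.99 and 2.22 in the host. rdh10a, which makes retinal from retinol, was 11.7-fold higher at 142 ± 22.9 FPKM in the donor against 12.1 ± 0.640 in the host. The retinoic acid hydroxylases went opposite ways. cyp26a1 had 27.7, 32.0 and 42.6 FPKM in the donor and 4.51, 4.37 and 3.91 in the host, while cyp26b1 had 2.05, 6.01 and 2.65 against 18.6, 18.3 and 18.6. dhrs3b, which reduces retinal, had 1.77 ± 0.649 FPKM in the donor and 19.5 ± 0.676 in the host (SD, n = 3 each). Of 49 genes of hedgehog, Wnt, Fgf and Bmp signalling 33 lay within 2-fold, 5 were higher and 11 lower. Of 13 genes of stress and immunity 3 were higher and 4 lower. These counts stand beside the 17.4% and 31.2% over all genes, and nothing is read from them. irf1b, an interferon regulatory factor, had 26.9, 22.7 and 22.2 FPKM in the donor and 0.616, 0.321 and 0.511 in the host, and zebrafish embryos had 30.6 and 22.8 FPKM against 1.94 and 3.16 in medaka embryos.

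Set beside whole embryos with this scaling and filter, the donor minus host difference was called lower more often than higher. The differences are signed, so lower means more negative and not a narrower gap. The donor minus host difference was higher than the zebrafish minus medaka embryo difference in 293 genes (4.35%) and lower in 1064 (15.8%). The same rule of adjusted p and 2-fold was used, in a fit over the 10 columns of all 7 libraries. After quantile normalization, with the minimum applied anew, these counts were 757 and 697, so that 52.1% of calls were higher, against 21.6% here. Among the 6577 genes kept in both settings the counts were 634 and 688. With 5 FPKM required in both genomes they were 175 and 216, or 44.8% higher. The main filter had kept 1780 genes through the host alone and 663 through the donor alone. The balance thus rested on scaling and filter, and a lower difference can come from the donor or from the host. Of the 1174 genes called higher in the donor 213 (18.1%) were also beyond the embryo gap, and of the 2100 called lower 920 (43.8%) were. Most of the 1064 genes, 920 of them, were thus also called lower in the donor than in the host. On the scale of log2(FPKM + 1), zebrafish embryos were at least 2-fold above medaka embryos in 57.8% of the genes called higher. They were at least 2-fold below in 57.2% of those called lower. Over all genes kept the 2 differences had Pearson's r of 0.716 and Spearman's rho of 0.739 (n = 6729 genes that share gene models).

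**Figure D4:**
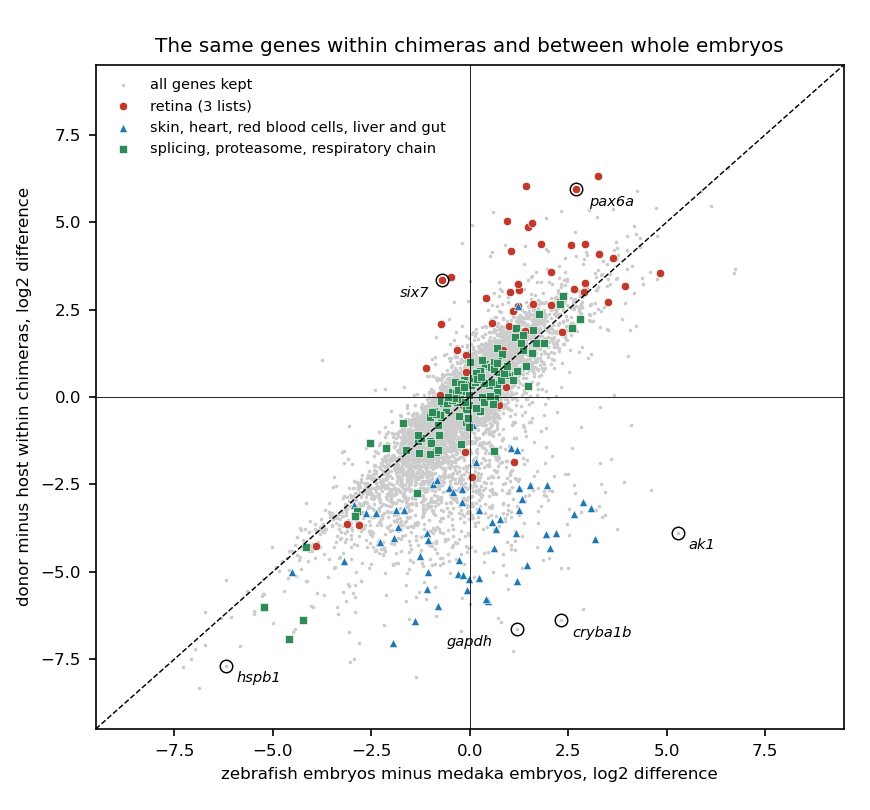
Donor minus host log2 difference within chimeras (vertical axis) against zebrafish minus medaka log2 difference between whole embryos (horizontal axis) for every gene kept, with equal differences on the dashed line. The lower right corner holds 108 genes at least 2-fold lower in the donor and at least 2-fold higher in zebrafish embryos, such as ak1, gapdh and cryba1b, and the upper left corner holds none past both limits.

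With this filter and scaling the opposite signs were uneven. On the scale of log2(FPKM + 1) no gene called higher in the donor by limma was at least 2-fold lower in zebrafish than medaka embryos. The count was also 0 with an unadjusted p under 0.05. By the ratio of mean FPKM six7 was such a gene. On the log2 scale 108 of the 6729 genes were called lower in the donor and at least 2-fold higher in zebrafish embryos. Of these, 38 were listed at 0 in every donor. The filter had kept 1780 genes through the host alone and 663 through the donor alone. The split was not redone with another filter or scaling, and nothing is read from it. Among the genes with the widest departure from the embryos stood, on the higher side, sept4a, a septin with 39.0, 54.5 and 43.3 FPKM in the donor and 1.08, 1.19 and 1.23 in the host while zebrafish and medaka embryos stood at 1.63 and 2.02 FPKM. si:dkey-21o19.2 and zgc:110045, genes with no name of their own, were 57.5-fold and 18.9-fold higher in the donor. pvrl1a, a nectin, was 7.50-fold higher. On the lower side stood pla2g12b, a member of the phospholipase A2 family, listed at 0 in each donor against 111, 123 and 108 FPKM in the host and 191 and 213 in zebrafish embryos. gamt, an enzyme of creatine synthesis, had 1.00, 2.45 and 2.67 FPKM in the donor and 253, 249.9 and 260.4 in the host. acp5a, an acid phosphatase, was listed at 0 against 79.4 ± 6.02 FPKM.

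The genes with the widest donor minus host gaps were not always those with the widest departure from the embryos. galcb, a lysosomal galactosidase for galactosylceramide, had 1.77, 1.81 and 0.656 FPKM in the donor and 746, 752 and 752 in the host, but zebrafish embryos had only 5.60 against 781 in medaka embryos. rgs5a, a regulator of G protein signalling, was listed at 0 in the donor against 139 FPKM in the host, and zebrafish embryos held 1.74 against 156. Both galcb and rgs5a were still called lower against the embryo gap, though not with 5 FPKM added. For ces3, a carboxylesterase, and gnpda1, a hexosamine enzyme, the embryos differed less, and the donor was listed at 0 for ces3 and had 0.468 FPKM of gnpda1 against 192 and 242 in the host. txn, thioredoxin, had 5.45, 4.99 and 6.05 FPKM in the donor against 859, 849.8 and 838 in the host. Among higher genes celf2, an RNA-binding splicing regulator, had 164, 168 and 132 FPKM in the donor and 1.75, 1.70 and 1.46 in the host. cdh2, N-cadherin of neural tissue, was 26.4-fold higher at a log2 difference of 4.44 against 3.70 between the embryos, and mprip, a myosin phosphatase partner, 37.5-fold higher with a difference of differences of 0.24 (adjusted p = 0.44).

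The donor supplied a large part of the transcripts of some genes. Its share of a gene's transcripts in a chimera was worked out from FPKM and the implied fragments of each genome, and it would be 2.27%, 2.07% and 2.30% in chimera replicates 1 to 3 for a gene at equal rescaled level. The median over all genes kept was 1.92%. The share exceeded 10% for 388 genes, 25% for 123 and 50% for 49. Of those 49 only 6 had a medaka model at 1 FPKM or more in medaka embryos, namely pax6a, celf2, dlc, si:dkey-21o19.2, irf1b and thrb. The share of pax6a was 60.6%, 64.0% and 64.2% in the 3 chimeras, that of celf2 68.1% ± 0.413 and that of thrb 52.5% ± 1.82 (SD, n = 3). By list the median share was 26.9% for photoreceptor genes, 23.5% for inner retinal neurons, 11.2% for the eye field and 10.3% for general neural genes, against 2.74% for splicing factors and 0.0564% for epidermis. The photoreceptor median includes nr2e3 and otx5, whose medaka models were close to 0 in medaka embryos too. The retinal lists also hold genes kept through the donor alone. For ola1, an ATPase at 83.3%, zebrafish and medaka embryos differed as widely as donor and host did, by 6.55 log2 units in each case.

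**Figure D5:**
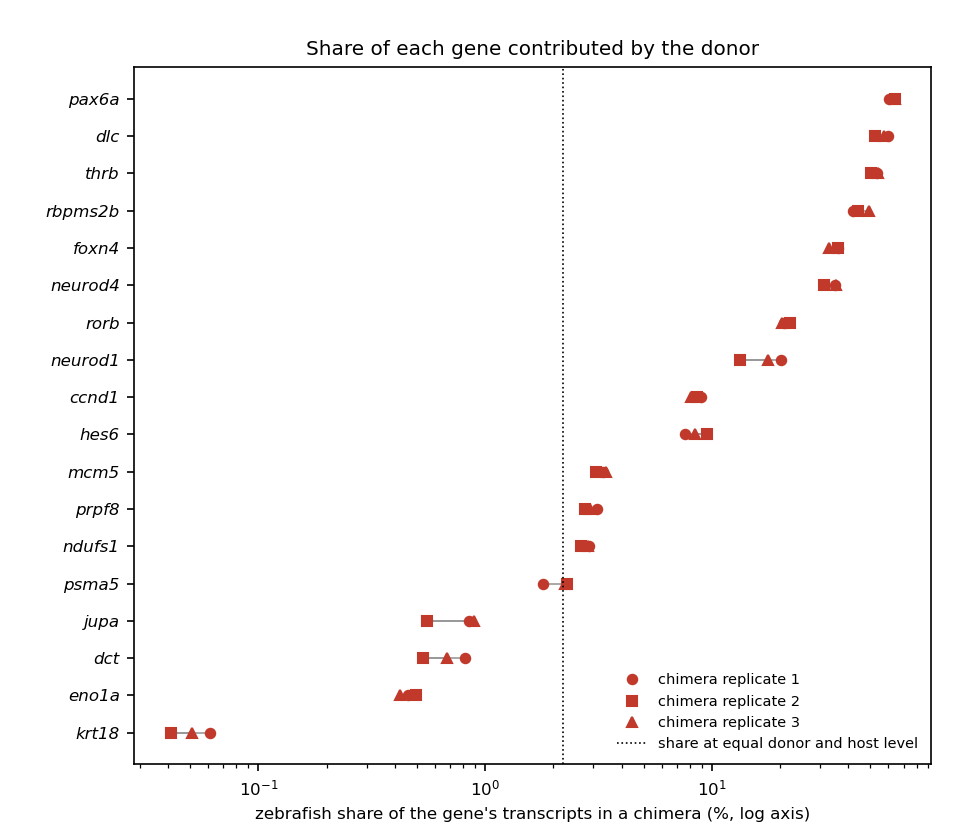
Zebrafish share of a gene's transcripts in each chimera (percent, log axis) for 18 genes, with the share at equal donor and host level as a dotted line. pax6a and the other retinal and neural genes lie well above the line, replication, splicing, respiratory chain and proteasome genes lie near the line, and dct, eno1a, jupa and krt18 lie under 1%.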

How the data were processed

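Poly(A) RNA of 3 chimera, 2 zebrafish and 2 medaka embryo libraries was sequenced, and each library has 2 tables of gene FPKM with 95% limits, 1 per genome. Per the submitters' processing notes, the authors used HISAT2 and Cufflinks 2.2.1 and the zebrafish build danRer10. Neither the HISAT2 version nor the medaka build is given in the sources used here. The deposited FPKM are normalized within each genome, so donor and host values had to be rescaled by the median ratio to a common reference. Counts were not among the files used, and fragments were worked out from the width of the deposited limits, so depth is an estimate.

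Genes were joined on symbol without regard to case, and 690 zebrafish and 394 medaka symbols on several IDs were left out. Genes at 1 FPKM or more in the other species' embryos were dropped (873), as were 24 without valid values. A mean of 5 FPKM in either genome was required. limma 3.58.1 in R 4.3.3, with an intensity trend and robust moderation, was fitted over all 6729 genes to log2(FPKM + 1). The first fit took the donor minus host difference within each of the 3 chimeras, so the genomes are paired by library. The second took 10 columns and compared that difference with the difference between zebrafish and medaka embryos. Benjamini-Hochberg adjustment was over all genes, and a call needed an adjusted p under 0.05 and 2-fold. With 3 pairs, an exact two-sided sign-flip test of a single gene cannot go below p = 0.25.

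Genes named are the 12 largest called in each direction of each comparison that had 10 FPKM in the higher genome and 1 FPKM in the lower species' own embryos, up to 4 per list, and every kept gene of the 3 retinal lists. Not every gene this rule picks is reported here. Further genes were named after their values were seen, among them those of the lens and pigment lists, the 6 given for their donor share, and those called in opposite directions by the comparisons. The members, the 31 lists and the tests were chosen with earlier results of these data known. Both fits were tested on simulated data. Alternatives covered the pseudocount, the filters, the scaling, the call rule, the block and each left-out library.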

Additional observations from a re-analysis of the deposited data

Results flagged for a closer look

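The gap between zebrafish and medaka transcripts differed between chimeras and whole embryos in 293 genes in the upward and 1064 in the downward direction, by limma's test of the difference itself. Among the genes named for this comparison, 9 were lower in the donor than in the host and at least 2-fold higher in zebrafish than in medaka embryos. The lens crystallin genes were cryba2b, with a difference of differences of -8.96 on the log2 scale, cryba1b with -8.72, crybb1l1 with -8.37 and crygmxl2 with -7.50. The difference runs against the whole embryos, where zebrafish held more of each than medaka.

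The other genes were ak1, an adenylate kinase, with -9.17, gapdh with -7.86, gsnb, a gelsolin, with -7.39, the red cell anion exchanger slc4a1a with -7.23 and the pigment gene gch2 with -7.21. Each gene other than gapdh was listed at 0 in the donor of all 3 chimeras, so these log2 values depend on the added 1 FPKM and are no measured folds. ak1 had 13.4, 14.2 and 13.8 FPKM in the host, 592 and 380.2 in zebrafish embryos and 11.3 and 11.1 in medaka embryos. gsnb had 28.6, 30.1 and 28.1 FPKM in the host, 150.5 and 125 in zebrafish embryos and 24.7 and 22.4 in medaka embryos. slc4a1a had 15.7, 15.6 and 15.7 FPKM in the host, 112 and 113 in zebrafish embryos and 11.0 and 12.3 in medaka embryos. At the host level the donor would have held about 13.7, 13.1 and 9.69 fragments per library of ak1, gsnb and slc4a1a. The part of donor depth in these values was not tested.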

How the results depend on the processing

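Counts moved with the call rule, the filters and the scaling. With 5 FPKM added the comparison of chimeras with embryos gave 149 genes higher and 622 lower. Its lower count was 1771 with a minimum of 1 FPKM and 2205 without one. With 5 FPKM required in both genomes donor against host gave 718 higher and 560 lower, and chimeras against embryos 175 and 216. The deposited FPKM gave 762 genes higher in the donor, and quantile normalization gave 757 higher and 697 lower against embryos. limma's test against a 2-fold threshold gave 751 higher in the donor, and 80 higher and 625 lower against embryos. With no fold minimum 2138 genes were higher in the donor and 1231 were higher against embryos. The other counts stayed within 1.5 times. Leaving out 1 library gave 1203 to 1219 higher and 2009 to 2094 lower within chimeras, and 260 to 341 higher and 975 to 1067 lower against embryos. Donor and host come from the same library, and the fit without this pairing gave 1170 higher and 2095 lower. The replicate block in the fit against embryos gave 293 and 1064 and changed no count. Keeping only genes with at least 3 implied donor fragments at the higher of the 2 levels, a choice added after the data were seen, the counts were 1164 and 2042 within chimeras and 293 and 1042 against embryos.

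Some named calls ended under an alternative. Within chimeras limma's test against a 2-fold threshold ended those of fgf8a, stra6, nr2e1, tfap2c, vax2 and mef2d, and 5 FPKM added that of crygn1, beside those given with their values. Against embryos 5 FPKM added ended the calls of aldh1a2, bhlhe23, crygn1, elavl4, galcb, irf1b, rgs5a, rlbp1a, sypa and tbx4, and leaving out 1 library, in at least 1 case, those of crygn1, fgf8a, hes6, irf1b and mab21l1. The test against a 2-fold threshold ended all of these other than aldh1a2 and tbx4, and those of celf2, cyp26a1, nr2e1, prox1a, ptf1a, sox18 and vax2. Quantile normalization ended those of aldh1a2, galcb, hes6, irf1b, mab21l1 and rgs5a, the deposited FPKM that of hes6, and 0.1 FPKM added that of crygn1.

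No gene named here that changed sign had been called in that comparison. Donor minus host became -0.087 for meis1b and -0.306 for pde6d with the deposited FPKM, 0.150 for foxd1 and 0.435 for prdm1a with quantile normalization, and 0.012 for prdm1a with equal sums. Leaving out 1 chimera at a time it ranged from -0.133 to 0.084 for mab21l2, from -0.159 to 0.083 for psma5 and from -0.137 to 0.099 for prdm1a. The difference against embryos became 0.015 for alcamb with equal sums. With quantile normalization it became 0.055 for dut, 0.634 for rbpms, 0.122 for tpi1a, 0.011 for mef2d and -0.089 for ola1. For ola1 it was also -0.142 with 0.1 FPKM added, -0.0128 with the deposited FPKM and -0.0067 without the cross-mapping filter, and tbr1b had -0.015 with 0.1 FPKM added. Leaving out 1 library at a time it ranged from -0.129 to 0.424 for myt1b, -0.621 to 0.108 for pmelb, -0.639 to 0.139 for rbpms and -0.088 to 0.140 for ola1. The cause was not tested. Donor depth limits all genes low in the donor, since the host level of cryba1b, 83.1 FPKM, would be 18.8 donor fragments.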
